A study of Oryza sativa with 4 samples.

Results

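The genes described here are 6 rice genes of ethanol and lactate fermentation and of the haemoglobin that acts beside them: alcohol dehydrogenases ADH1 (Os11g0210300) and ADH2 (Os11g0210500), pyruvate decarboxylases PDC1 (Os05g0469600) and PDC2 (Os03g0293500), a lactate dehydrogenase (LDH, Os06g0104900) and haemoglobin Hb1 (Os03g0233900). They are 6 of the 37858 gene IDs in the deposited table, taken by ID from a list drawn up with their levels in these same libraries in view. Their levels and fold changes are therefore given as a description, with no p-value, and how many of them the fit across all genes called is given only as a count beside the share of all genes called. The study sequenced poly(A) RNA from leaves of the cultivar Nipponbare, the japonica rice behind the reference genome, to ask how heat given to seed changes gene expression in the leaves of the progeny. The leaves came from progeny of heated seed (heated 1 and heated 2, both labelled as incubated at 30 °C) and from control progeny (control 1, labelled 25 °C, and control 2, labelled 30 °C). The 30 °C label of control 2 is that of the heated group, and the labels do not say which of its title and its temperature is in error, if either is. The sources used here do not give plant age, the number of plants in a library, the growth conditions of the leaves or the generation, and nothing says that replicates came from separate plants.

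When oxygen is short, plant cells that can no longer respire keep glycolysis running by fermentation. Pyruvate decarboxylase turns pyruvate into acetaldehyde, and alcohol dehydrogenase reduces acetaldehyde to ethanol, which gives back the NAD+ that glycolysis needs. Lactate dehydrogenase also gives back NAD+, by reducing pyruvate to lactate. Non-symbiotic haemoglobins of plants bind oxygen tightly and remove nitric oxide. In rice, ethanol fermentation is best known from seeds and seedlings under water, and ADH1 is the isoform on which growth of submerged seedlings depends.

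Both alcohol dehydrogenase genes and PDC2 were higher in leaves of heated progeny than in control leaves, in every pairing of a heated with a control library. ADH2 was 8.47-fold, ADH1 3.78-fold and PDC2 2.999-fold the control mean, in counts scaled to library size (CPM, per 1000000 counts). Hb1 and PDC1 were listed at 0 in both controls. In heated 1 and heated 2, Hb1 had 10 and 9 counts and PDC1 had 7 and 1. LDH was listed at 0 in all 4 libraries. Total expected counts were between 15444235 and 17298384 per library. At this depth 3 counts, the limit taken here for a count of 0, correspond to 0.168 to 0.206 CPM. Intervals and such limits cover counting error only.

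**Figure D1:**
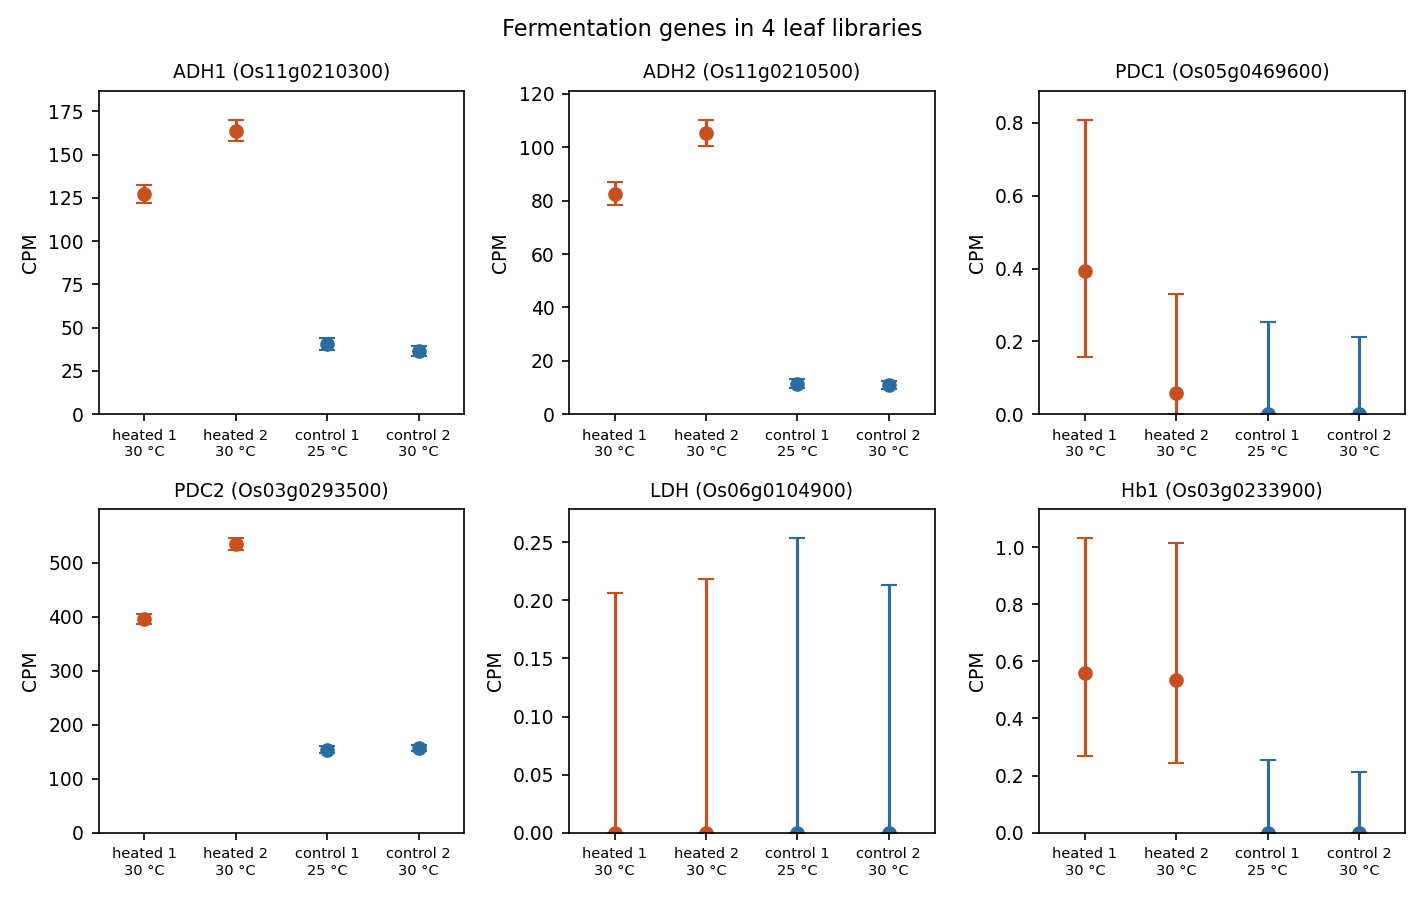
Level of each of the 6 genes in each library, in CPM on a linear axis that starts at 0, with bars for the exact 95% Poisson counting interval; heated libraries are orange, control libraries blue, and the labelled incubation temperature stands under each name. For ADH1, ADH2 and PDC2 both heated libraries lie above both controls with no overlap of the bars, whereas PDC1 and Hb1 rest on 10 counts or fewer in a library and LDH on 0.

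Pyruvate decarboxylase is the entry step to ethanol. PDC2 had 395 CPM in heated 1 and 534 CPM in heated 2, against 153 CPM in control 1 and 156 CPM in control 2. The heated libraries did not overlap with the controls, and the controls, whose labels differ in temperature, lay close together. The means were 464 ± 98.0 CPM in heated leaves and 155 ± 2.21 CPM in control leaves (SD, n = 2 each), and the log2 fold change fitted across all genes was 1.58 (SE 0.19). Single heated libraries were between 2.53-fold and 3.48-fold above single controls. The exact 95% counting intervals of these ratios ran from 2.42 to 2.70 for heated 1 and from 3.27 to 3.65 for heated 2, so the gap between heated 1 and heated 2 was wider than counting error. PDC2 was the gene most exposed to the choice of library: without heated 2 its log2 fold change was 1.35 and it was not among the genes called, which were 0.558% of those tested without that library.

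Some reads of PDC2 were divided with the preceding ID in the table, Os03g0293450, by the counting program. The expected counts of PDC2 were 7053.39 and 9000.42 in the heated libraries and 2231.71 and 2710.90 in the controls. Added to those of Os03g0293450, they gave whole numbers in every library, 7123 and 9109 in heated leaves and 2282 and 2727 in control leaves. The preceding ID took between 0.590% and 2.20% of the sum. With both rows added together the log2 fold change was 1.58, the same to the second decimal as that of PDC2 alone.

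PDC1, the other pyruvate decarboxylase listed, had 7 counts in heated 1 and 1 count in heated 2, against 0 in both controls. These are 0.392 and 0.0593 CPM in heated leaves. Set against a floor of 3 counts over the control group, the bound on the fold of PDC1, heated over control, was 2.45. It takes the heated counts as they stand and leaves out their own counting error. This bound rests on heated 1, since the single count in heated 2 lies within the limit that a count of 0 allows. The bound was 1.33 without control 1, 1.11 without control 2 and 4.17 without heated 2, and without heated 1 none can be given.

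Alcohol dehydrogenase follows as the step that makes ethanol. ADH1 had 127 CPM in heated 1 and 164 CPM in heated 2, against 40.4 CPM in control 1 and 36.6 CPM in control 2. The groups did not overlap, and the lowest heated library lay 1.65 above the highest control on the log2 scale. The means were 145 ± 25.9 CPM in heated leaves and 38.5 ± 2.74 CPM in control leaves (SD, n = 2 each), and the fitted log2 fold change was 1.92 (SE 0.17). Single pairs of libraries gave between 3.14-fold and 4.48-fold.

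ADH2, the next alcohol dehydrogenase in ID order, had 82.6 CPM in heated 1 and 105 CPM in heated 2, against 11.3 CPM in control 1 and 10.8 CPM in control 2. The heated libraries were again the higher pair, here with the widest gap among the 3 genes with counts in every library, 2.87 on the log2 scale between the lowest heated and the highest control library. The means were 93.9 ± 16.0 CPM in heated leaves and 11.1 ± 0.343 CPM in control leaves (SD, n = 2 each), with a fitted log2 fold change of 3.08 (SE 0.18). Single pairs gave between 7.29-fold and 9.70-fold. The lowest end of their exact 95% counting intervals was 6.20-fold, above the highest end of those for ADH1, 4.89-fold.

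ADH1 and ADH2 thus differed by unequal factors between the groups, which shows in the make-up of the pair. ADH2 held 39.4% of the counts of both genes in heated 1 (exact Clopper-Pearson 95% interval 37.8% to 41.0%) and 39.1% in heated 2 (37.7% to 40.6%). In the controls it held 21.9% in control 1 (19.0% to 25.0%) and 22.9% in control 2 (20.0% to 25.9%). The share averaged 39.3 ± 0.182% in heated and 22.4 ± 0.698% in control leaves (SD, n = 2 each). Within each group the libraries differed by less than these intervals, and between the groups the intervals did not meet. Gene lengths were not used, so the share itself does not say which gene had more transcripts, and only its shift between libraries can be read. The pair together had 210 and 269 CPM in the heated libraries, against 51.8 and 47.4 CPM in the controls, and a fitted log2 fold change of 2.27.

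**Figure D2:**
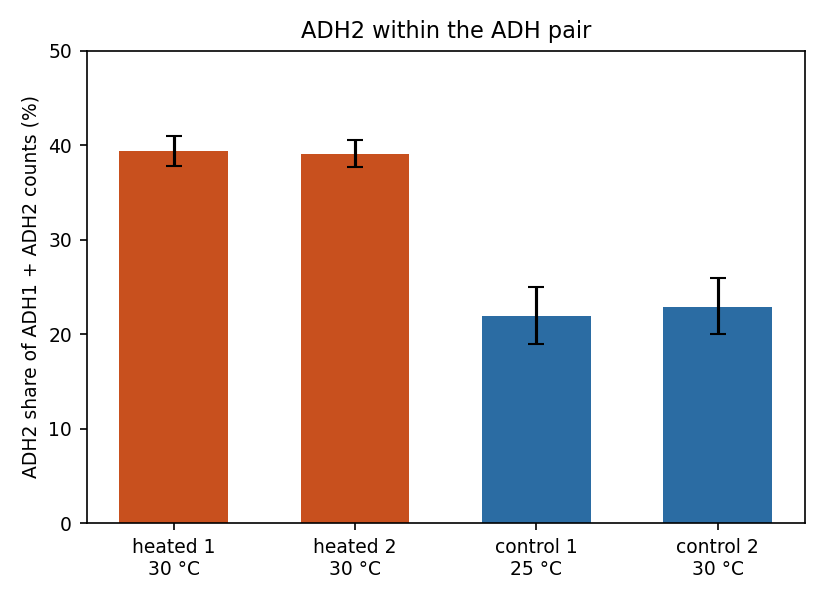
Share of ADH2 in the summed counts of ADH1 and ADH2 in each library, in percent, with exact 95% Clopper-Pearson intervals as bars; heated libraries are orange and controls blue. The share is 39.4% and 39.1% in the heated libraries, against 21.9% and 22.9% in the controls.

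ADH1 and ADH2 lie on chromosome 11 and follow each other in the ID order of the deposited table, which lists 0 IDs between them. The RefSeq gene table, of another assembly, has 3 entries between the genes it names ADH1 and ADH2. The counting program divided hardly any reads between ADH1 and ADH2: their expected counts were whole in 3 libraries, and in control 2 they were 634.01 and 187.99, which sum to 822. How many reads matched both genes was not examined. The IDs on either side of the pair were not higher in heated leaves. Os11g0210201, which precedes ADH1, had 15.1 ± 4.48 CPM in heated and 24.2 ± 0.302 CPM in control leaves (SD, n = 2 each). The fitted log2 fold change, -0.68 (SE 0.23), had an adjusted p of 0.409 by edgeR. Os11g0210600, which follows ADH2, had 12.2 ± 0.527 CPM in heated and 17.2 ± 3.98 CPM in control leaves, with a log2 fold change of -0.49 (SE 0.21) and an adjusted p of 0.571 by edgeR. Neither passed the threshold, which does not show that their levels were equal.

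Lactate dehydrogenase, which makes lactate instead of ethanol, was not detected under the listed ID. The RefSeq table has 0 entries named LDH on chromosome 6, so this name rests on the list alone, and other lactate dehydrogenase genes were not analysed here. Os06g0104900 was at 0 in heated 1, heated 2, control 1 and control 2, which allows up to 0.168, 0.178, 0.206 and 0.173 CPM. The IDs before and after it in the table were at 0 in all 4 libraries as well. No fold can be given for it.

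Hb1, the haemoglobin, had 10 counts in heated 1 and 9 in heated 2, against 0 in both controls. Its level was 0.560 and 0.534 CPM in the heated libraries, a mean of 0.547 ± 0.0188 CPM (SD, n = 2), above both controls. The exact 95% Poisson counting intervals were far wider than this SD, 0.269 to 1.03 CPM in heated 1 and 0.244 to 1.01 CPM in heated 2. The interval of heated 2 overlapped that of control 1, which reached 0.253 CPM. Against the floor of 3 counts over the control group, the bound on the fold of Hb1, heated over control, was 5.82. As for PDC1, the counting error of the heated counts is left out. The bound stayed between 5.68 and 5.96 when either heated library was left out. It was 3.15 without control 1 and 2.63 without control 2, because the floor then stands against a single control. Hb1 did not reach the filter on low counts and has no value from the main fit. Without that filter PDC1 and Hb1 were fitted too, and neither was among the 419 of 29698 genes called. The preceding ID, Os03g0233800, had 1.07 ± 0.328 CPM in heated and 1.63 ± 0.0231 CPM in control leaves (SD, n = 2 each), with a log2 fold change of -0.60 (SE 0.45) and an adjusted p of 0.760 by edgeR. Its counts were fractional in 3 libraries, while those of Hb1 were whole. The following ID, Os03g0234000, was at 0 in all 4 libraries.

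Of the 6 genes, 5 had a count in any library, and in all 5 both heated libraries lay above both controls, PDC1 by a single count in heated 2. This order was found in 19.4% of the 29698 IDs with a count, and in 21% of the 22184 that passed the filter. The filter was passed by 3 of the 6 (ADH1, ADH2 and PDC2), and all 3 were called higher at a Benjamini-Hochberg adjusted p under 0.05 over all genes tested (edgeR quasi-likelihood test). Of all genes tested, 0.699% were called in either direction and 0.248% were called higher. The genes were listed with their levels in these libraries known, so neither count is a test of them and nothing is read from either. The number of all genes called moved with the libraries used: it was 155 with all 4. Leaving out heated 1 gave 64 and leaving out heated 2 gave 129. Omission of control 1 gave 504 and omission of control 2 gave 2506. The median log2 fold change of these 3 genes was 1.92. With PDC1 and Hb1 added at their bounds it was 1.92 as well, but these bounds are lower limits that lie on either side of ADH1. The median with bounds therefore adds nothing on how stable the first is. The median of all genes tested was 0.0061. Among the genes tested, 0.55% had a larger fitted log2 fold change than ADH2, 1.31% a larger one than ADH1 and 1.81% a larger one than PDC2. In bulk leaf RNA, more cells of a type and more RNA per cell cannot be told apart.

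**Figure D3:**
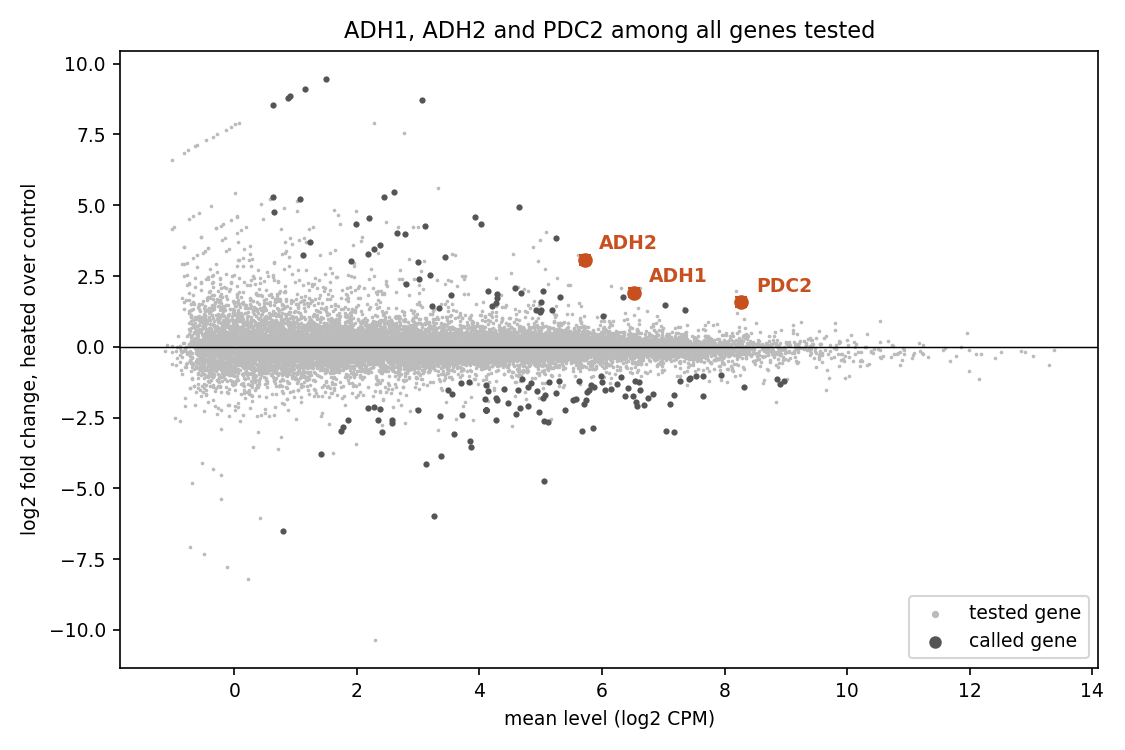
Fitted log2 fold change, heated over control, against mean level in log2 CPM for the 22184 genes tested (grey), with called genes in dark grey and ADH1, ADH2 and PDC2 in orange with bars of 1 SE, mostly hidden by the points. The 3 genes stand above the bulk of genes of similar level, with log2 fold changes of 1.92, 3.08 and 1.58.

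The controls, whose labels differ in temperature, lay close together in ADH1, ADH2 and PDC2. The log2 ratio of control 2 over control 1 was -0.15 for ADH1, -0.06 for ADH2 and 0.03 for PDC2. When control 1 is set at 0 and the mean of the heated libraries at 1 in log2 units, control 2 stood at -0.079 for ADH1, -0.020 for ADH2 and 0.018 for PDC2. Control 2 shares the 30 °C label with the heated libraries, and it lay close to control 1 in all 3 genes. This rests on a single control library for each label, and an effect of temperature was not tested. When the libraries were grouped by temperature label instead, the 3 libraries at 30 °C over control 1 alone, the log2 fold changes were 2.55 for ADH2, 1.43 for ADH1 and 1.24 for PDC2, and 0 of the 3 was called, against 0.747% of the genes tested in that grouping. By the same edgeR test, 4950 of those 23285 genes had an unadjusted p under 0.05. The lone library was there assumed to vary like the other 3.

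The heated libraries differed more from each other than the controls did, and in the same direction in all 3 genes. Heated 2 was above heated 1 by 0.37 for ADH1, 0.35 for ADH2 and 0.43 for PDC2 on the log2 scale. Over all genes tested, the median of this log2 ratio was -0.0086. Between 15.1% and 21.3% of genes were farther apart between the heated libraries than these 3. PDC1 and Hb1 did not share that order, with 7 and 10 counts in heated 1 and 1 and 9 in heated 2.

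**Figure D4:**
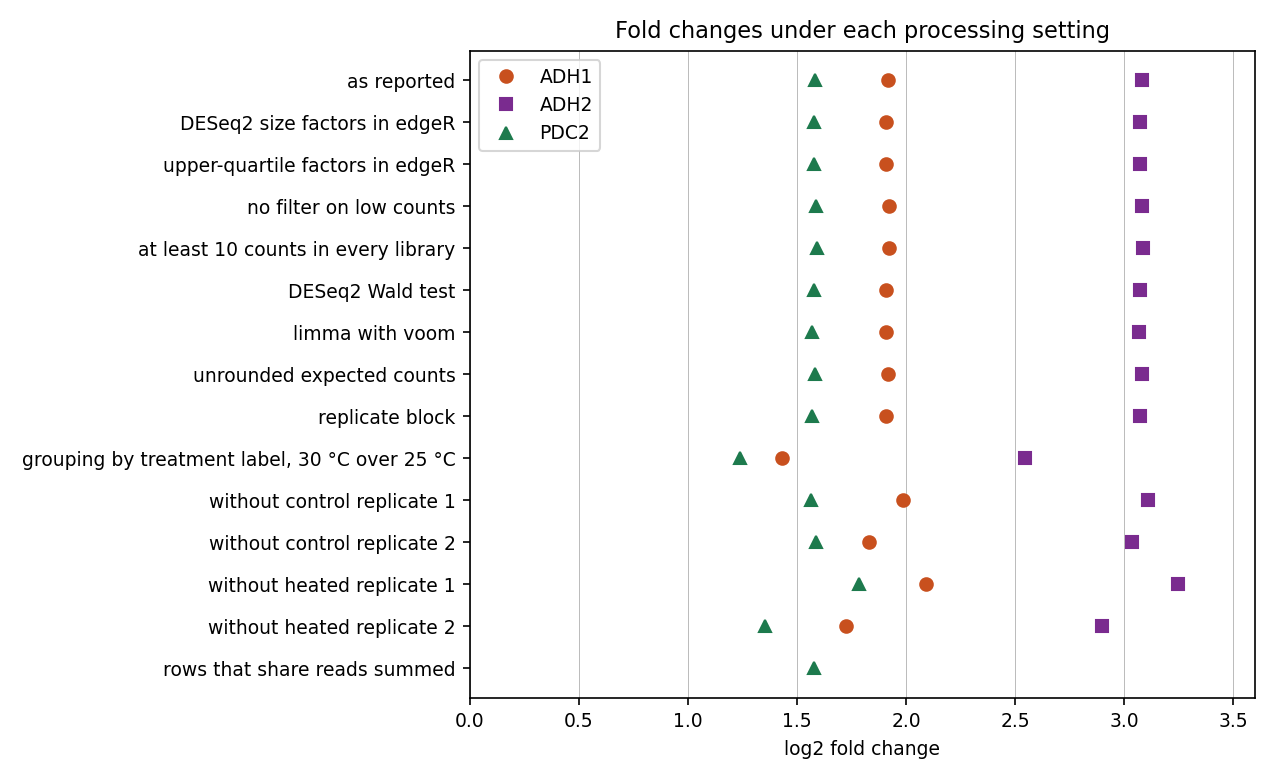
Log2 fold change of ADH1 (circles), ADH2 (squares) and PDC2 (triangles) under each setting named on the vertical axis. All values lie above 0; the grouping by temperature label and the omission of heated 2 give the lowest, between 1.24 and 2.90.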

How the data were processed

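Per the labels' protocols, leaf RNA was extracted with phenol, chloroform and LiCl, made into libraries with a strand-marking mRNA kit and read as paired ends on a NovaSeq. Per the submitters' processing notes, FastQC 0.11.7, Trimmomatic, Bowtie2, RSEM, edgeR 3.26.3 and the build IRGSP-1.0 were used. The sources used here do not give the settings, the annotation or the use of strand. The deposited values are expected counts, per the file headers from RSEM gene results, not normalized. Reads that match more than 1 gene are shared out by RSEM, which leaves fractions.

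Expected counts were rounded, filtered with filterByExpr (minimum count 10, minimum total 15; 22184 IDs left), scaled by TMM and fitted in R 4.3.3 with edgeR 4.0.16 (quasi-likelihood test, group by title). Calls used a Benjamini-Hochberg adjusted p under 0.05. The SE is the log2 fold change divided by the root of F. CPM use the same scaled sizes. Positions and distances used log2(CPM + 0.5).

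The genes and lists were chosen with earlier results of these data known. All 6 listed genes are named, and other IDs only as direct neighbours in ID order or as the 2 profiles nearest to ADH1. Gene names are those of the list. The RefSeq table (ASM3414082v1) matched 0 of the 6 IDs and 1 of all 37858. It holds 1 entry each named ADH1 and ADH2 on chromosome 11, PDC1 on 5 and PDC2 on 3, the chromosomes in the IDs. For Hb1 it holds 2 entries named Hb1 or NSHB1 on chromosome 3, so that name is not tied to a single entry. It has 0 entries named LDH on chromosome 6. It gives no product names, so 6 lists of related pathway genes and the leaf markers could not be used, and the tissue label was not checked. No sequence was used. The p-values reflect the spread between these libraries alone, which may be technical.

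DESeq2 1.42.0, limma 3.58.1 with voom, other scalings and filters, unrounded counts, a replicate block, grouping by temperature label and omission of each library were tried. Summing rows that share reads was added after seeing the data.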

Additional observations from a re-analysis of the deposited data

How the results depend on the processing

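The log2 fold changes of ADH1, ADH2 and PDC2 kept their sign under every alternative, and under those that kept all 4 libraries grouped by title they stayed between 1.91 and 1.92, 3.07 and 3.09, and 1.57 and 1.59. Grouping by temperature label gave 1.43, 2.55 and 1.24, a median of 1.43, and 0 of the genes called. This grouping moves control 2 to the other side. Leaving out 1 library gave 1.72 to 2.09 for ADH1 (also the median), 2.90 to 3.25 for ADH2 and 1.35 to 1.79 for PDC2. For each gene the lowest value came without heated 2. Calls by temperature label and without heated 2 are given above, beside the share of all genes called. The number of all genes called was 155, 419 without a filter on low counts, 551 with DESeq2's Wald test and 64 to 2506 with 1 library left out (504 without control 1, 2506 without control 2, 64 without heated 1). With a replicate block 532 genes were called. The labels do not say that equal replicate numbers pair libraries, and the difference between replicates correlated at -0.015 between the groups. For these shifts the cause was not tested. With 2 libraries a group, the few counts of PDC1 and Hb1 allow bounds only.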

Other observations

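Across the 4 libraries, the profile nearest to that of ADH1 belonged to Os07g0673900, at a distance of 0.151 on the centred log2(CPM + 0.5) scale. It had 5.32 and 6.28 CPM in the heated libraries, against 1.44 and 1.21 CPM in the controls. Next was Os01g0731100, at a distance of 0.176, with 28.0 and 33.1 CPM in the heated libraries and 9.34 and 7.33 CPM in the controls. The deposited table does not pair these IDs with names. PDC2 was in place 13 of the 20586 other genes that averaged 1 CPM or more, at a distance of 0.354. ADH2 was in place 309, at 1.12, because its change was larger than that of ADH1. With 4 libraries such nearness is a description only.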
